A study of Mus musculus with 6 samples.

Results

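Expression of plasma membrane amino acid transporters was measured by RNA-seq in mouse cytotoxic (CD8+) T cells, which kill infected or malignant targets. The transporters were 10 genes chosen by name, Slc7a5, Slc3a2, Slc7a6, Slc43a1, Slc1a5, Slc1a4, Slc38a1, Slc38a2, Slc7a1 and Slc6a9, of 55487 genes in the deposited tables. They and the gene lists below were chosen with earlier results of these data known. All 10 passed the filter on low counts and were among the 12350 genes tested. The cells came from C57BL/6 mice and were kept for 48 h with 5 mM itaconate (3 libraries) or with NaCl as the control (3 libraries). Itaconate is a dicarboxylic acid that activated macrophages make. The question put by the design is what itaconate does to their mRNA levels. The labels do not say how the cells were purified or activated. They also do not say that replicates were independent animals or cultures, and p-values then measure only how far these libraries differ, possibly for technical reasons.

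Amino acids cross the plasma membrane through carriers with overlapping substrates. SLC7A5 (LAT1) imports leucine and other large neutral amino acids in exchange for internal ones, and needs SLC3A2, the CD98 heavy chain, to reach the surface. Mouse T cells raise several of these carriers on activation, and imported leucine, arginine and glutamine feed protein synthesis and signal to mTORC1, the growth-control kinase complex at the lysosome. When amino acids run short, the kinase GCN2 favours translation of the transcription factor ATF4, which binds sites with the core TGATGNAA and switches on transporters and synthetic enzymes.

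Sequences upstream of RefSeq gene starts were searched for that core and for CACGTG, the E-box bound by MYC, on both strands. The windows ran from 250 bases before to 50 bases after each start (RefSeq, GRCm38.p6) and gave 11 starts for 7 of the 10 transporters. Slc7a5, Slc1a5 and Slc38a1 were not searched. TGATGNAA was in 1 of the 11 windows, that of Slc1a4, and in 3.97% of all 32851 windows. CACGTG was in 1 of the 11, that of Slc43a1, and in 7.15% of all windows. The matching stretches are shown 5′ to 3′ on the gene's strand with the match in capitals, and no match of either motif overlapped a match of the other. Those of Asns and Slc7a11, which are known ATF4 targets, are given for comparison.
Slc1a4 (chr11:20332704-20332733, minus strand): cagcgtgcctcctgcgTTGCATCAtctcca
Asns (chr6:7693219-7693248, minus strand): ttgggtcccagccacaTGATGAAActtccc
Slc7a11 (chr3:50443647-50443695, minus strand): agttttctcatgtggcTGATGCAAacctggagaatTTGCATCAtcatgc
Slc43a1 (chr2:84840243-84840270, plus strand): gcccagggtctccctcCACGTGgcagcc

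The 100 bases before a start are shown for Slc6a9, at the first of its 3 starts, and for Slc7a1, at the first of its 2, because these were the transporters whose mRNA passed the test. Neither motif was found in any window of these genes. The absence says only that these letters are not in the windows searched.
Slc6a9 (chr4:117835158-117835257, plus strand): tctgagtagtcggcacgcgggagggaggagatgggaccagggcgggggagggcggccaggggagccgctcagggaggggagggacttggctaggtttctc
Slc7a1 (chr5:148399905-148400004, minus strand): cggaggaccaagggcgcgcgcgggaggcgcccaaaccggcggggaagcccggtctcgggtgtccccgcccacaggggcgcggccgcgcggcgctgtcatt

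Library totals lay between 18280217 and 31643408 expected counts, the authors' estimates of reads per gene. Levels are given as CPM, counts scaled to library size with TMM factors, or as the authors' TPM, which also divides by transcript length. Summed CPM of 6 CD8 T cell markers (Cd8a, Cd8b1, Cd3e, Cd3d, Cd3g, Trac) was 1626 to 1634 in itaconate and 1396 to 1482 in control libraries. Of the 6, Cd8a alone rose (log2 fold change 0.38 ± 0.049, edgeR adjusted p 0.000297), from a mean of 497 CPM in control to 645 CPM with itaconate. The other 5 did not pass (edgeR adjusted p 0.245 to 0.974), with log2 fold changes from 0.0047 (Cd3e) to 0.12 (Cd3d). The called share was 16.7%, against 12% of all tested genes. Summed CPM of 4 B cell markers was 9.60 to 20.0 against 11.1 to 16.1, and of 2 CD4 T cell markers 2.44 to 6.65 against 3.08 to 5.43. Sums over 5 myeloid, 2 NK cell, 3 dendritic cell and 2 erythroid markers did not exceed 3.995 CPM in any library, and Ncr1, Klrb1c, Flt3, Xcr1, Csf1r, Adgre1, Cd14 and Hba-a1 each had a count of 0 in at least 1 library. The part of other cells in the values below was not tested. In such bulk samples, fewer cells of a type and less RNA per cell cannot be told apart.

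Of the 10 transporters, 1 rose, the glycine carrier Slc6a9, 1 fell, the arginine carrier Slc7a1, and 8 did not pass. A gene counted as changed at an adjusted p under 0.05 by edgeR's quasi-likelihood test over all genes tested. By that rule 12% of all tested genes changed, with 6.68% higher and 5.36% lower, so 1 of 10 in each direction is within 1 gene of the background. Of the changed genes 55.5% were higher, against 39.1% and 39.6% by limma on log2 TPM at pseudocounts of 1 and 0.1. The median log2 fold change of the 10 was 0.0069, against 0.0059 over all tested genes, and lay between -0.061 and 0.047 under the alternatives, on both sides of 0. The lowest value was by limma on log2(TPM + 0.1), where the median over all tested genes was -0.057. The highest was without control replicate 1, where that median was -0.0011. Itaconate and control CPM were fully separate for 7 of the 10 (5 higher and 2 lower with itaconate), as they were for 31.2% of all tested genes. In TPM the groups overlapped for Slc7a5, Slc1a5 and Slc1a4, which were among these 7.

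**Figure D1:**
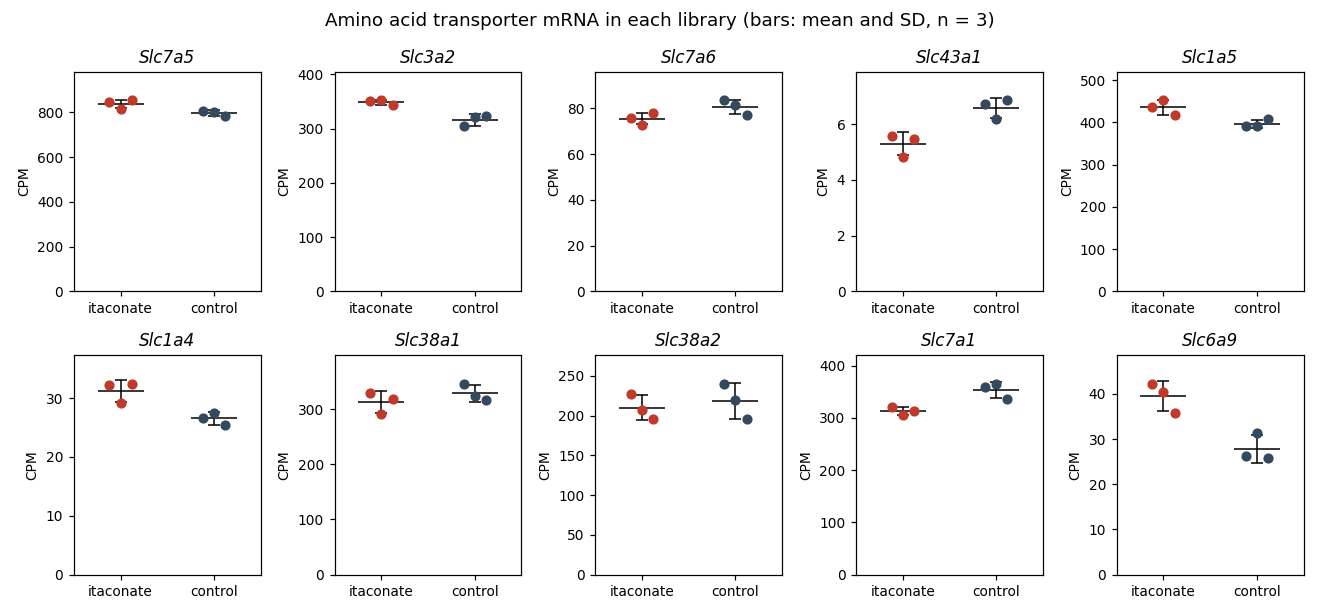
CPM (linear axis from 0) of each transporter in the 3 itaconate (red, left) and 3 control (dark, right) libraries, with black bars for the mean and SD. Slc6a9 lies at 35.8 to 42.3 CPM with itaconate and 25.8 to 31.3 CPM in control, and the groups overlap in the panels of Slc38a1, Slc38a2 and Slc7a6.

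Per length of transcript, Slc7a5, Slc3a2 and Slc1a5 were the most abundant of the 10, at means over all 6 libraries of 310, 277 and 211 TPM. They made up 77.0%, 78.0% and 76.9% of the summed TPM of the 10 genes in itaconate replicates 1, 2 and 3, and 73.7%, 75.0% and 76.2% in control replicates 1, 2 and 3. Slc38a1 (67.0 TPM), Slc7a1 (60.1 TPM) and Slc38a2 (59.0 TPM) followed, with ranges over libraries that overlapped one another. Slc7a6 had 35.1, Slc6a9 16.03, Slc1a4 9.70 and Slc43a1 3.32 TPM, and the library ranges of these 4 did not overlap. The ranges of Slc7a5 (295 to 322 TPM) and Slc3a2 (261.7 to 296 TPM) overlapped at the edge, though Slc7a5 was the higher of the pair in every library. The sum over the 10 genes was 1101, 1017 and 1034 TPM in itaconate libraries and 1068, 1066 and 1000.4 TPM in control libraries, with overlap between the groups.

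The leucine carrier Slc7a5 had 844, 816 and 853 CPM in itaconate libraries and 808, 802 and 784 CPM in control libraries. All 3 itaconate libraries lay above the control libraries, by a narrow margin. Its log2 fold change of 0.07 ± 0.043 (SE) did not pass (edgeR adjusted p 0.333), with a 95% interval of the fold of 0.984 to 1.12. The sign turned on TPM values (log2 change -0.0052 by limma on log2(TPM + 1)), where the median over all tested genes was -0.050. Slc7a5 is a protein-coding gene on chromosome 8 at 121881150 to 121907694 (GRCm38, GENCODE M21).

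Its heavy chain partner Slc3a2 had 351, 352 and 343 CPM in itaconate libraries and 304, 321 and 323 CPM in control libraries. The groups did not overlap, with means of 348 ± 5.0 CPM with itaconate and 316 ± 10 CPM in control (SD, n = 3 each). The log2 fold change of 0.14 ± 0.045 missed the threshold (edgeR adjusted p 0.0551), with a fold interval of 1.03 to 1.18. Slc3a2 lies on chromosome 19 at 8706882 to 8723369. Because SLC3A2 is shared by several light chains, the TPM ratio of Slc7a5 to Slc3a2 was compared. It was 1.085, 1.046 and 1.103 in itaconate libraries and 1.214, 1.148 and 1.112 in control libraries, so the groups did not overlap. The two-sided exact permutation p was 0.1, the smallest that 3 against 3 libraries can give, and 0.2 adjusted over the 4 ratios compared. With CPM in place of TPM, the ratio was higher in itaconate replicate 3 than in control replicate 3, so the groups overlapped.

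Slc7a6 encodes y+LAT2, another SLC3A2 light chain, which exchanges internal arginine for external neutral amino acids. It had 75.7, 72.9 and 77.8 CPM in itaconate libraries and 83.4, 81.2 and 77.2 CPM in control libraries, with overlap of the groups in itaconate replicate 3 and control replicate 3. The log2 fold change of -0.09 ± 0.056 did not pass (edgeR adjusted p 0.309). Slc7a6 lies on chromosome 8 at 106168857 to 106198706. The TPM ratio of Slc7a5 to Slc7a6 was 9.98, 10.2 and 8.68 in itaconate libraries and 7.41, 8.65 and 8.67 in control libraries. Itaconate replicate 3 lay just above the highest control library, and the exact permutation p was again 0.1 (0.2 adjusted over the 4 ratios).

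Slc43a1 encodes LAT3, which carries large neutral amino acids without a heavy chain and was the least abundant of the 10. It had 5.59, 4.83 and 5.49 CPM in itaconate libraries and 6.72, 6.19 and 6.86 CPM in control libraries. The groups did not overlap, yet with rounded counts of 87 to 216 per library the error was the widest of the set, at -0.31 ± 0.14 on the log2 scale. It did not pass (edgeR adjusted p 0.172). Slc43a1 lies on chromosome 2 at 84838850 to 84863594.

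Slc1a5 (ASCT2), a sodium-dependent exchanger that brings in glutamine, had 436, 452 and 418 CPM in itaconate libraries and 390.3, 390.4 and 408 CPM in control libraries. The lowest itaconate library lay above the highest control library in CPM. In TPM the groups overlapped, at 229.4, 216.9 and 203.8 with itaconate and 207.8, 204.3 and 202.7 in control. The log2 fold change of 0.14 ± 0.047 did not pass (edgeR adjusted p 0.0729), with a fold interval of 1.03 to 1.18. Slc1a5 lies on chromosome 7 at 16781340 to 16798274, and Slc1a4 on chromosome 11 at 20302180 to 20332713.

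Its paralog Slc1a4 (ASCT1), which carries alanine, serine and cysteine and held the ATF4-type core at its start, had 32.3, 29.1 and 32.4 CPM in itaconate libraries. It had 26.7, 27.5 and 25.4 CPM in control libraries, below every itaconate library. In TPM the groups overlapped, at 10.95, 9.33 and 10.59 with itaconate and 9.32, 9.53 and 8.46 in control. The log2 fold change of 0.24 ± 0.075 fell just short of the threshold (edgeR adjusted p 0.0517) and passed in 4 of 17 alternative analyses, among them the one without itaconate replicate 2 (adjusted p 0.0488). The TPM ratio of Slc1a5 to Slc1a4 was 20.9, 23.2 and 19.2 in itaconate libraries and 22.3, 21.4 and 24.0 in control libraries, which overlapped (exact permutation p 0.4, 0.4 adjusted over the 4 ratios).

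The sodium-coupled glutamine and alanine carriers Slc38a1 (SNAT1) and Slc38a2 (SNAT2), which lie close together on chromosome 15 (96571418 to 96642913 and 96687392 to 96699730), did not pass. Slc38a1 had 329, 292 and 318 CPM in itaconate libraries and 346, 323 and 317 CPM in control libraries. Slc38a2 had 227, 208 and 196 CPM in itaconate libraries and 240.1, 219.9 and 195 CPM in control libraries. In both genes the groups overlapped. The log2 fold changes were -0.07 ± 0.054 for Slc38a1 (edgeR adjusted p 0.437) and -0.06 ± 0.078 for Slc38a2 (adjusted p 0.708), and that of Slc38a2 turned to 0.02 without control replicate 1. The fold intervals were 0.879 to 1.03 for Slc38a1 and 0.853 to 1.08 for Slc38a2. Their TPM ratio, Slc38a1 to Slc38a2, was 1.096, 1.037 and 1.174 with itaconate and 1.144, 1.147 and 1.222 in control, with overlap (exact permutation p 0.3, 0.4 adjusted over the 4 ratios).

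Slc7a1 (CAT1), the main importer of arginine and lysine in many cells, had 321, 305 and 314 CPM in itaconate libraries and 359, 366 and 336 CPM in control libraries. Every itaconate library lay below every control library. Means were 313 ± 7.8 CPM with itaconate and 354 ± 16 CPM in control (SD, n = 3 each), and the log2 fold change was -0.17 ± 0.047 (edgeR adjusted p 0.0279), 1.13-fold lower with itaconate. It did not pass when control replicate 1 or 2 was left out (adjusted p 0.0622 and 0.126), nor when itaconate replicate 2 or 3 was (0.111 and 0.0934). It was also lost when effective transcript length was modelled (0.0976) and with limma on log2(TPM + 1) (0.147). Slc7a1 lies on chromosome 5 at 148327410 to 148399904.

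Slc7a3 (CAT3), a cationic amino acid carrier of the same family, rose in the same cells. It had 27.3, 30.2 and 32.6 CPM in itaconate libraries and 18.6, 20.2 and 19.1 CPM in control libraries, with no overlap. The log2 fold change was 0.64 ± 0.085 (edgeR adjusted p 0.000321), a 1.56-fold difference, which passed without any 1 library. On the TPM scale Slc7a3 averaged 18.1 ± 1.1 TPM with itaconate and 12.2 ± 0.74 TPM in control, where Slc7a1 averaged 55.3 ± 3.2 and 64.8 ± 4.4 TPM (SD, n = 3 each).

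The glycine transporter Slc6a9 (GlyT1), which takes up glycine with sodium and chloride, had 42.3, 40.5 and 35.8 CPM in itaconate libraries and 26.2, 31.3 and 25.8 CPM in control libraries. The groups were separate, and itaconate replicate 3 was the lowest of its group. The log2 fold change was 0.51 ± 0.088 (edgeR adjusted p 0.00194), a 1.43-fold difference with an interval of 1.252 to 1.626. The call held without any 1 library (adjusted p 0.00343 to 0.0131) and was lost in 1 of 11 other analyses, limma on every gene with a TPM (0.146). In TPM it had 17.4, 20.0 and 20.1 with itaconate and 11.2, 14.8 and 12.8 in control. Slc6a9 lies on chromosome 4 at 117834506 to 117875198, and its annotated exons share bases with genes on the other strand, 1429 with Ccdc24, 511 with Gm17114 and 46 with B4galt2. The strand setting is not given in the sources used here. Gm17114 had no counts and Ccdc24 at most 1.20 CPM in any library, while B4galt2, a galactosyltransferase, had 7.33 ± 1.2 CPM with itaconate and 4.53 ± 0.23 CPM in control (log2 fold change 0.70 ± 0.16, edgeR adjusted p 0.0105, 0.0557 without itaconate replicate 2). Its part in the Slc6a9 value was not tested. No annotated exon of the other 9 transporters overlapped an exon of another gene.

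**Figure D2:**
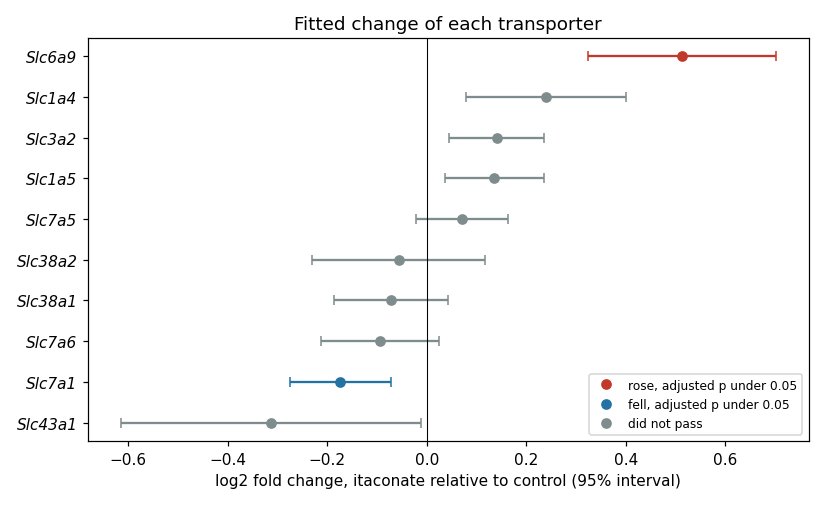
Fitted log2 fold change, itaconate relative to control, of each transporter with its 95% interval, ordered by size. Slc6a9 (red, 0.51) passed upward and Slc7a1 (blue, -0.17) downward, and the grey intervals of Slc1a4, Slc3a2, Slc1a5 and Slc43a1 exclude 0 without passing the adjustment over all genes.

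Of the genes averaging 10 CPM or more, the 3 whose log2 CPM, centred over the 6 libraries, differed least from that of Slc7a5 were Uba1, Arf3 and Stat6. Their root mean square differences were 0.0101, 0.0104 and 0.0128. Their log2 fold changes were 0.07, 0.07 and 0.05.

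Most other amino acid transporters of the plasma membrane were below the filter on low counts. Of 31 further genes listed, 8 were tested and 23 were not, of which 12 had no count in any library, Slc38a5 (SNAT5) among them. Slc7a2 (CAT2) and Slc7a8 (LAT2) had at most 4 and 7 counts in a library. Of the 8 tested genes 1 rose, Slc7a3, none fell and 7 did not pass (12.5% called, against 12% of all tested genes), with a median log2 fold change of 0.12. Those that did not pass included Slc6a6, the taurine carrier, at 209 ± 11 CPM with itaconate and 217 ± 14 CPM in control (edgeR adjusted p 0.626). Slc16a10, which carries aromatic amino acids, had 25.9 ± 0.41 CPM with itaconate and 29.5 ± 0.51 CPM in control (adjusted p 0.0938). Slc43a2 (LAT4) had 30.2 ± 1.9 and 27.2 ± 2.5 CPM in the same order (adjusted p 0.285). The cystine carrier Slc7a11, with a pair of ATF4-type cores upstream, had 4.21 ± 0.30 CPM with itaconate and 3.97 ± 0.26 CPM in control (adjusted p 0.789).

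Transporters of the lysosome, which return amino acids to the cytosol, gave 10 tested genes, of which none rose and 1 fell (10% called, against 12% of all tested genes). Slc15a4, a lysosomal carrier of histidine and oligopeptides, had 11.3, 14.3 and 13.7 CPM in itaconate libraries and 17.6, 17.3 and 16.3 CPM in control libraries (log2 fold change -0.38 ± 0.10, edgeR adjusted p 0.0296). Leaving out control replicate 1 or 2 (adjusted p 0.0757 and 0.0935) or itaconate replicate 1 or 3 (0.104 and 0.0628) ended that call. Slc38a9, the lysosomal arginine sensor of the pathway, had 9.59 ± 0.75 CPM with itaconate and 7.99 ± 0.27 CPM in control (adjusted p 0.172). The median log2 fold change of the list was 0.02.

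Among 35 tested genes that pass amino acid supply on to mTORC1, 2 rose, 1 fell and 32 did not pass (8.57% called, against 12% of all tested genes), with a median of 0.04. Rragd, 1 of the Rag GTPases that bring mTORC1 to the lysosome, had 10.8, 11.3 and 9.57 CPM in itaconate libraries and 4.64, 5.65 and 4.001 CPM in control libraries. In CPM every itaconate library lay well above the control libraries. The log2 fold change of 1.16 ± 0.15 (edgeR adjusted p 0.00023) was the largest in size among the tested genes of the amino acid lists described here. In TPM the groups overlapped, at 2.81, 4.73 and 2.43 with itaconate and 1.24, 2.78 and 1.02 in control. With effective-length offsets the log2 fold change was 1.11 ± 0.41 and was not called (adjusted p 0.176). By limma it was 1.01 ± 0.39 on log2(TPM + 0.1) and 0.71 ± 0.27 on log2(TPM + 1), also not called (adjusted p 0.195 and 0.1996, and 0.409 over every gene with a TPM). Its family member Rraga had 59.7 ± 2.1 CPM with itaconate and 68.2 ± 0.92 CPM in control (adjusted p 0.0385, kept in the absence of control replicate 3 alone). Sesn3, a sestrin that restrains mTORC1, had 66.4 ± 2.0 CPM with itaconate and 57.0 ± 4.3 CPM in control (adjusted p 0.0373, kept in the absence of control replicate 1 alone).

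**Figure D3:**
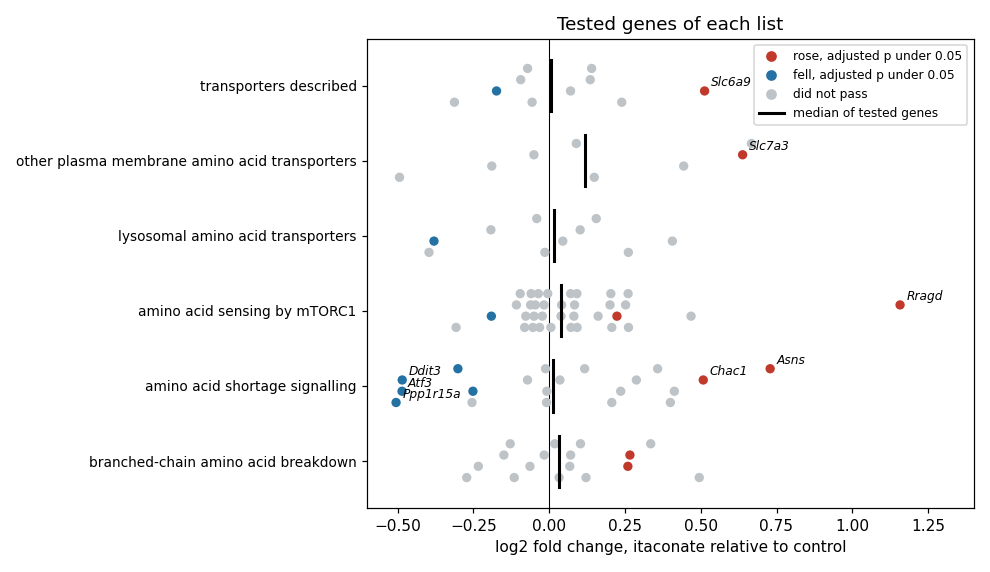
Log2 fold change, itaconate relative to control, of every tested gene in each list (red rose, blue fell, grey did not pass; the vertical position within a list only separates points), with a black line at each list's median. The medians lie between 0.0069 and 0.12, and Rragd (1.16), Asns (0.73) and Slc7a3 (0.64) are the called genes farthest to the right.

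Of 20 tested genes listed for amino acid shortage signalling, 2 rose, 5 fell and 13 did not pass, with a median log2 fold change of 0.01. The list also holds eIF2 kinases other than GCN2, so it is not specific to amino acid shortage. Eif2ak4, which encodes GCN2, did not pass (log2 fold change -0.07 ± 0.085, edgeR adjusted p 0.652). The called share was 35%, against 12% of all tested genes, but the list was chosen with earlier results of these data known. Its share is therefore not independent of those results. The 7 calls became 4 without control replicate 3, itaconate replicate 2 or itaconate replicate 3, and 4 with effective-length offsets. Of the 7 called genes, Asns and Ppp1r15a passed without any 1 library. Asns, asparagine synthetase, with the ATF4-type core shown above, averaged 195 ± 15 CPM with itaconate and 118 ± 11 CPM in control (edgeR adjusted p 0.000174). Chac1, which degrades glutathione, had 14.8 ± 1.3 CPM with itaconate and 10.4 ± 1.3 CPM in control (adjusted p 0.0129, lost without itaconate replicate 2 at 0.0517). Ppp1r15a, which ends the response by restoring eIF2 activity, had 25.6 ± 2.0 CPM with itaconate and 36.2 ± 3.5 CPM in control (adjusted p 0.00189). Ddit3, the transcription factor CHOP, had 9.36 ± 0.74 and 13.1 ± 1.9 CPM in the same order (adjusted p 0.0221, lost without control replicate 2 or 3 or itaconate replicate 1 or 3). The other 3 that fell, named after their values were seen, were Atf3, a stress-induced transcription factor, and the eIF2 kinases Eif2ak2 and Eif2ak3 (adjusted p 0.0247 to 0.0299). Atf3 was not called without control replicate 2 or 3 or itaconate replicate 3, Eif2ak2 without control replicate 1 or 2 or itaconate replicate 2 or 3, and Eif2ak3 without control replicate 2 or 3 or itaconate replicate 1 or 2. Atf4 had 641, 709 and 648 CPM in itaconate libraries and 544, 643 and 656 CPM in control libraries (adjusted p 0.327). Control replicate 1 was the lowest control library for Atf4 and also, among genes picked after their values were seen, for the ATF4 target Trib3, at 41.8 CPM against 60.6 and 55.8 CPM in control replicates 2 and 3. It was likewise low for Ddit4, an mTORC1 inhibitor, at 100.5 CPM against 146 and 142 CPM, and for the translation repressor Eif4ebp1, at 92.6 CPM against 140 and 131 CPM. Other genes of the list were highest there among control libraries. Eif2ak4 had 40.8 CPM against 37.7 and 32.3 CPM, and Ppp1r15b 199 CPM against 182 and 187 CPM. Trib3 had 65.0, 73.1 and 72.2 CPM in itaconate libraries, above every control library, and did not pass (edgeR adjusted p 0.0993). Over all genes control replicate 1 was the control library farthest from the others (chi-square per gene 11.7 and 16.9, against 7.05 between the other 2). Without it 7 of the 20 genes were called. Myc had 570.4 ± 17 CPM with itaconate and 555 ± 30.1 CPM in control (edgeR adjusted p 0.674).

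Enzymes that break down branched-chain amino acids, substrates of SLC7A5, gave 17 tested genes, of which 2 rose, none fell and 15 did not pass (11.8% called, against 12% of all tested genes), with a median of 0.03. Bcat2, the mitochondrial transaminase that starts the pathway, had 71.0 ± 3.8 CPM with itaconate and 59.2 ± 5.8 CPM in control (edgeR adjusted p 0.0312). Bcat2 lost its call without control replicate 1 or 2 or itaconate replicate 2 or 3.

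**Figure D4:**
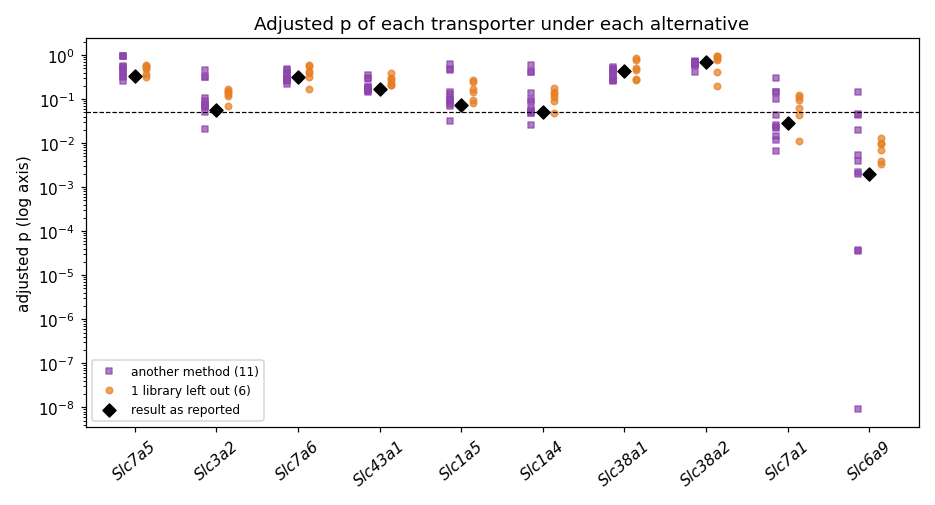
Adjusted p (log axis) of each transporter as reported (black diamond), under 11 other methods (purple squares) and with 1 of the 6 libraries left out (orange circles), with the dashed line at 0.05. Slc6a9 crosses the line in 1 alternative, Slc7a1 lies on both sides of it, and Slc7a5, Slc38a1, Slc38a2, Slc7a6 and Slc43a1 stay above it throughout.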

How the data were processed

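The authors deposited 1 gene table per library, with RSEM column names. Per the file headers, the values tested were expected counts, estimated by the authors and not normalised. TPM, per the file headers, was scaled by the authors to effective length and a fixed total. Bowtie 0.12.2 and the builds mm8 and mm10 appear in the submitters' processing notes. For RSEM's version, the annotation and the strand setting, the sources used here give nothing. Other values used, per the file headers, are the length columns in bases, other than expression units. GENCODE M21 held 99.83% of the 55487 gene identifiers.

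Expected counts were rounded (5.99% to 6.93% of genes per library were over 0.001 from a whole number), filtered with edgeR's filterByExpr (minimum count 10, total 15), TMM-scaled (factors 0.987 to 1.02) and tested over the 6 libraries in R 4.3.3 with edgeR 4.0.16 (quasi-likelihood, robust, two-sided, Benjamini-Hochberg over 12350 genes). The sole factor was treatment. Ratios and transcript lengths used two-sided exact permutation tests. Fold intervals are 95% intervals from the fitted SE. Alternatives used DESeq2 1.42.0, limma 3.58.1 on log2(TPM + 1) or log2(TPM + 0.1), other filters and scalings, length offsets, a replicate block and left-out libraries. No pair of libraries of a group looked like 1 library deposited or sequenced again (chi-square per gene 4.84 to 16.9). Counts that differ only by sampling give about 1, and an exact copy gives less.

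The analysis was tested on simulated data, with 50 genes planted at each fold and the same dispersion for all genes. At an adjusted p under 0.05, edgeR recovered 0% of the genes planted at 1.1-fold and 28% at 1.25-fold. It recovered 82% at 1.5-fold and 88% at 2-fold. Not passing is therefore weak evidence of no change at the smaller sizes. The members and lists were chosen with earlier results of these data known. Named were all members, up to 2 called genes in each direction with the smallest adjusted p from each list, 10 genes fixed by name and the 3 most like Slc7a5; 1 gene that this rule names is not reported here. Slc38a9, Atf3, Eif2ak2, Eif2ak3, Eif2ak4, Ppp1r15b, Trib3, Ddit4, Eif4ebp1 and the genes opposite Slc6a9 were named after their values were seen.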

Additional observations from a re-analysis of the deposited data

How the results depend on the processing

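Of 170 member values under alternatives (17 for each of the 10 transporters), 151 kept their direction and their side of the threshold, and in this set the 15 calls that moved and 4 signs that turned were as follows; except as stated, the cause was not tested. Slc7a1 was lost with effective-length offsets (-0.17), with limma on log2(TPM + 1) (-0.22), on log2(TPM + 0.1) (-0.23) and on every gene with a TPM (-0.22), and ran from -0.22 to -0.16 with 1 library left out. Slc6a9 was lost with limma on every gene with a TPM (0.54). Slc1a4 passed with every gene with a count (0.24) and with a minimum count of 30 (0.24), and ran from 0.20 to 0.29 with 1 library left out. Slc7a5 turned sign in all 3 limma analyses of TPM (-0.0052 each), where the medians over all genes tested were -0.050, -0.057 and -0.019. Slc38a2 ran from -0.14 to 0.016 with 1 library left out, the last without control replicate 1. Among all genes, 1487 changed; 567 did with length offsets, 340 and 356 with limma at pseudocounts 1 and 0.1, 59 with limma on every gene with a TPM, and 726 to 1400 with 1 library left out (726 without control replicate 2, 896 without itaconate replicate 2 and 835 without itaconate replicate 3). Of the calls, 55.5% were higher, against 39.1% and 39.6% with limma at the 2 pseudocounts.

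Called genes in the lists moved too. With length offsets 0 lysosomal, 0 mTORC1, 4 shortage and 0 branched-chain genes were called. With limma at either pseudocount these counts were 0, 1, 4 and 0. On every gene with a TPM they were 0, 0, 1 and 0, and 0 for other plasma membrane transporters. With every gene with a count 7 mTORC1 and 11 shortage genes were called, and 1 branched-chain gene was called with DESeq2 or library totals alone. With 1 library left out the counts ran from 0 to 1 (lysosomal), 1 to 4 (mTORC1), 4 to 7 (shortage) and 0 to 2 (branched-chain).

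The labels do not say that replicate numbers pair libraries, so the main test did not pair them. Deviations of libraries with the same replicate number correlated at 0.154, 0.0398 and 0.0308 across genes (numbers 1, 2 and 3), all positive. Itaconate replicates 1 and 3 correlated best with the control library of their own number, and itaconate replicate 2 with control replicate 3 (0.102). With the replicate number as a block 2419 genes were called, among them Slc3a2 (0.14, adjusted p 0.0205), Slc1a5 (0.13, 0.0323) and Slc1a4 (0.24, 0.0261), with 7 mTORC1 and 12 shortage genes. Standard errors of the 10 transporters were 0.043 to 0.14 on the log2 scale at these depths, widest for Slc43a1. A transporter that did not pass may still differ by any fold within its interval.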

Other observations

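The tables also give each gene's transcript length weighted by the estimated abundance of its isoforms, which shifts when isoform use shifts. For Slc38a1, with 7 annotated transcripts in the files, it was 6150, 6281 and 6388 bases in itaconate libraries and 5843, 5947 and 6159 bases in control libraries, which overlapped at the edge (two-sided exact permutation p 0.2, 0.714 adjusted over the 10 transporters). For Slc3a2 it was 1697.5, 1690.5 and 1685 bases with itaconate and 1731, 1702 and 1710.1 bases in control, with no overlap (exact p 0.1, the smallest possible here, 0.714 adjusted). The weighted length of Slc6a9, with 12 transcripts, had the widest spread of the 10, at 3239, 2604 and 2359 bases in itaconate libraries and 3231, 2922 and 2686 bases in control libraries (exact p 0.5).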
